A study of Homo sapiens
Mus musculus with 16 samples.

Results

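A set of 8 keratin genes of squamous tumour cells were followed across 4 drug treatments, in tumours grown from a bladder cancer line in mice. They were the rows named KRT5, KRT14, KRT15, KRT6A, KRT6B, KRT6C, KRT16 and KRT17 in the table of human gene expression, 8 of 23368 genes listed there. KRT5, KRT14 and KRT15 are the 3 basal keratins, and the other 5 are the stress keratins. All 8 passed the filter on low values, which kept the 17663 genes that reached a value of 1 in 4 or more libraries.

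Keratins build the intermediate filaments of epithelial cells, and each filament needs a type II keratin paired with a type I keratin. KRT5 (type II) pairs with KRT14 (type I) in the basal layer of stratified epithelia, and KRT15 is a further type I keratin of basal cells. KRT6A, KRT6B and KRT6C (type II) and KRT16 and KRT17 (type I) are low in resting epidermis and are made by wounded, inflamed or fast-growing squamous cells. In bladder cancer, KRT5, KRT6 and KRT14 mark tumours of the basal and squamous kind.

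ScaBER is an established line from a human squamous bladder carcinoma, and here its cells were carried as xenografts. The hosts were Hsd:Athymic Nude-Foxn1nu mice, a strain that lacks a thymus and so has few T cells, and all 4 groups shared this line and this host. Tumours had 14 days of nintedanib at 40 mg/kg together with alpelisib at 25 mg/kg (combination), nintedanib at 40 mg/kg alone, alpelisib (BYL719) at 25 mg/kg alone, or vehicle, which was 0.5% methylcellulose with 0.1% Tween80. Nintedanib blocks receptor kinases for VEGF, PDGF and FGF. Alpelisib blocks PI3K alpha. Each group had 4 libraries, 16 in all, and the stated aim was to learn what lies behind the synergy of the drugs in vivo. The age of the mice is not given in the sources used here, nor is it stated whether any animal gave more than 1 library. The p-values therefore cover library-to-library spread, which may be technical.

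Depth was 8303617 to 18568119 human-mapped reads and 3606008 to 6850491 mouse-mapped reads per library. A library kit that reads the 3′ ends of transcripts was used, and values were scaled by the authors to 1 size factor per library. The values are not per transcript length. Single genes, and the sums and ratios of genes given below, are compared between libraries and are not read as the abundance of 1 gene against another. Libraries differed in the make-up of their host part. The summed value of 22 mouse skeletal muscle genes was 163781 in combination 1 and 254884 in nintedanib 4, and at most 40425 in the other libraries. For mouse skin and hair genes the summed value was 16841 in alpelisib 1, against 1792 to 4988 elsewhere.

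Markers of basal squamous cells were present. TP63, the transcription factor of basal squamous cells, ran from 596 to 1215 normalized counts, CDH3 from 1958 to 4333 and CD44 from 6285 to 8767. They are among 18 listed basal attachment and identity genes, which summed to 69923 to 96534 per library. The 16 listed genes of luminal urothelium summed to 1663 to 3132 normalized counts per library, and only some of them are given singly here. That sum also holds UPK3B, GRHL3, ERBB2, ERBB3, CYP2J2, SNX31 and TMPRSS2, whose levels are left out of this paragraph. Of the markers of luminal urothelium, the uroplakin UPK3A was at 0 in 15 of 16 libraries, and UPK2 reached 15.7 normalized counts. UPK1A ran from 12.6 to 50.9, UPK1B from 22.0 to 82.8, FOXA1 from 4.35 to 50.9, PPARG from 5.24 to 23.9 and GATA3 from 96.4 to 258, and KRT20 reached 7.95. ELF3, also in that list, averaged 743 ± 309 normalized counts in the combination group, 669 ± 118 with nintedanib, 771 ± 318 with alpelisib and 451 ± 94.7 with vehicle (SD, n = 4 each).

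The 8 keratins took 2.58% ± 0.416 of human reads in the combination group, 2.85% ± 0.330 with nintedanib, 2.43% ± 0.613 with alpelisib and 2.45% ± 0.418 with vehicle (SD, n = 4 each). Libraries ranged from 1.78% to 3.23%. Depth was no limit for most of them, since every gene but KRT6C had at least 6374 reads in each library. KRT6C had 488 to 1900 reads, for which counting alone gives an error of 4.53% at the low end and 2.29% at the high end. In whole tumour tissue, fewer cells of a type and less RNA per cell cannot be told apart.

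In none of the 8 comparisons did a keratin pass the threshold, an adjusted p of 0.05 in limma over all 17663 genes. The largest difference was that of KRT16 between nintedanib and vehicle. The group means of each keratin could be put in order, but in 0 of the 24 neighbouring pairs in those orders was the gap larger than the larger of the 2 SDs. What the 16 libraries show for each keratin follows, by role.

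**Figure D1:**
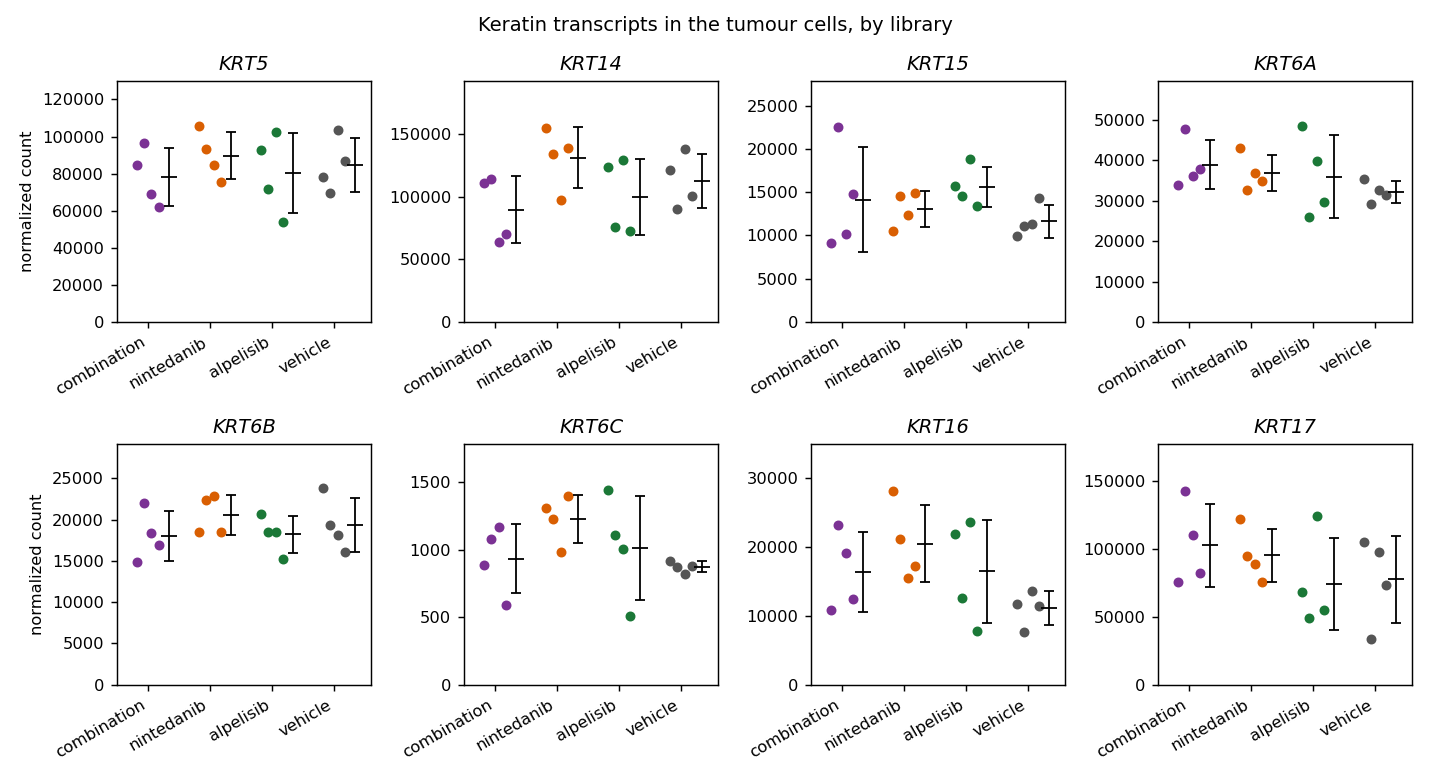
Normalized count of each keratin (y axis, from 0) in each of the 16 libraries, by treatment group (x axis). Points are libraries, and the bar beside them is the group mean ± SD (n = 4). KRT16 and KRT6C had all 4 nintedanib points above all 4 vehicle points, and the groups overlapped in the other 6 genes.

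The basal pair KRT5 and KRT14 overlapped between all groups. KRT14 had 111011, 114289, 63943 and 70017 normalized counts in the combination libraries and 154899, 134162, 97175 and 139479 in the nintedanib libraries. It had 123809, 75556, 129238 and 72505 with alpelisib, against 121834, 90112, 138434 and 100557 with vehicle. Combination 3 and 4 and alpelisib 2 and 4 lay under every vehicle library, and the other libraries of those groups lay inside the vehicle range. The log2 difference was -0.36 (SE 0.32, 95% interval -1.03 to 0.32) for the combination, 0.22 (SE 0.32) for nintedanib and -0.20 (SE 0.32) for alpelisib, each against vehicle. It was -0.21 for the combination without combination 3 and -0.062 for alpelisib without alpelisib 4. Against nintedanib alone the combination stood at -0.58 (log2, SE 0.32, 95% interval -1.25 to 0.10, limma adjusted p = 0.623).

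KRT5, the type II partner of KRT14, averaged 78214 ± 15479 normalized counts in the combination group, 89761 ± 12889 with nintedanib, 80327 ± 21672 with alpelisib and 84569 ± 14534 with vehicle (SD, n = 4 each). Its lowest value was 54176, in alpelisib 4, and its highest 105719, in nintedanib 1. Its log2 differences from vehicle were -0.12, 0.09 and -0.10 in the same 3 treated groups, with a standard error of 0.29 each, and the alpelisib value had the other sign, 0.018, under quantile normalization. These intervals reach from -0.71 to 0.69 over the 3 groups, so differences up to that size lie within them.

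KRT15, the other basal type I keratin, stood highest in the alpelisib group on average. It had 9128, 22478, 10141 and 14820 normalized counts in the combination libraries and 10489, 14532, 12306 and 14925 in the nintedanib libraries. It had 15669, 14553, 18830 and 13417 with alpelisib, against 9895, 11086, 11287 and 14371 with vehicle. Of the 4 alpelisib libraries 3 lay above every vehicle library, while combination 2 held the highest value of all. The log2 difference from vehicle was 0.42 with alpelisib (SE 0.24, 95% interval -0.07 to 0.92, limma adjusted p = 1), 0.20 with the combination and 0.16 with nintedanib. Without combination 2 the combination value was -0.056.

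KRT16, a type I keratin of wounded and hyperproliferative epithelium, had the widest gap between drug and vehicle. It had 10810 normalized counts in combination 1, then 23284, 19204 and 12532 in the other combination libraries, and 28167, 21147, 15542 and 17259 with nintedanib. Alpelisib libraries had 21849, 12576, 23636 and 7791, against 11747, 7638, 13580 and 11503 with vehicle. All 4 nintedanib libraries lay above all 4 vehicle libraries, whereas the combination and alpelisib groups each held libraries inside the vehicle range. The log2 difference between nintedanib and vehicle was 0.88 (SE 0.31, 95% interval 0.23 to 1.53), a ratio of 1.84 on the linear scale, with a limma p of 0.0106 and an adjusted p of 0.324. It was 0.53 with the combination (SE 0.31, 95% interval -0.12 to 1.18) and 0.46 with alpelisib (SE 0.31, 95% interval -0.19 to 1.11). Over the alternatives tried, the KRT16 difference between nintedanib and vehicle ran from 0.71 without vehicle 2 to 0.999 without nintedanib 3, with adjusted p between 0.152 and 0.730. It was 0.95 without the 2 muscle-rich libraries. The KRT16 difference between alpelisib and vehicle was 0.24 without alpelisib 3 and 0.78 without alpelisib 4, and that of the combination was 0.34 without combination 2.

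For KRT16, the intervals of the combination against each drug alone included 0. Against nintedanib alone the combination was at -0.35 (log2, SE 0.31, 95% interval -1.001 to 0.30), with -0.17 without combination 1 and -0.54 without combination 2, and against alpelisib alone it was at 0.06 (SE 0.31, 95% interval -0.59 to 0.72), with the other sign under quantile normalization (-0.033), edgeR (-0.021) and DESeq2 (-0.00052). The interaction, which is the combination minus nintedanib minus alpelisib plus vehicle, was -0.81 (SE 0.44, 95% interval -1.73 to 0.11, limma adjusted p = 0.818). Averaged over both levels of alpelisib, the 8 libraries with nintedanib stood at 0.47 against the 8 without (log2, SE 0.22, 95% interval 0.01 to 0.93, limma adjusted p = 0.341), and at 0.31 without alpelisib 4.

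KRT17, which forms filaments with KRT6 in stressed epithelia, had its lowest value in a vehicle library. It had 75833, 142655, 110621 and 82247 normalized counts in the combination libraries and 122240, 94634, 89204 and 75454 with nintedanib. Alpelisib libraries had 68443, 49369, 124062 and 55400, against 104883, 33771, 98086 and 73680 with vehicle. Vehicle 2 was the lowest of all 16 libraries, and all groups overlapped. The log2 differences from vehicle were 0.49 with the combination (SE 0.37), 0.40 with nintedanib (SE 0.37) and -0.04 with alpelisib (SE 0.37), the last with the other sign under quantile normalization (0.042). Without vehicle 2 they were 0.13 for the combination, 0.043 for nintedanib and -0.39 for alpelisib. The combination stood at 0.52 against alpelisib alone (SE 0.37, 95% interval -0.25 to 1.29, limma adjusted p = 0.732), and at 0.80 without alpelisib 3.

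Among the KRT6 genes, KRT6C was the one whose nintedanib and vehicle libraries did not overlap. KRT6C had 891, 1084, 1169 and 591 normalized counts in the combination libraries and 1313, 1226, 987 and 1397 with nintedanib. It had 1443, 1107, 1004 and 511 with alpelisib, against 919, 872, 820 and 883 with vehicle. Vehicle libraries were tight, with an SD of 4.70% of the mean, and alpelisib libraries were wide, with an SD of 37.9% of the mean. The log2 difference between nintedanib and vehicle was 0.48 (SE 0.24, 95% interval -0.02 to 0.99, limma adjusted p = 0.447). It was 0.05 for the combination, which turned to -0.012 when libraries were scaled to human plus mouse reads, and 0.12 for alpelisib. The combination stood at -0.43 against nintedanib alone (SE 0.24, 95% interval -0.94 to 0.07), and at -0.23 without combination 4.

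The other KRT6 genes, KRT6A and KRT6B, overlapped between all groups. KRT6A averaged 38896 ± 6081 normalized counts in the combination group, 36934 ± 4487 with nintedanib, 35980 ± 10192 with alpelisib and 32155 ± 2631 with vehicle (SD, n = 4 each). KRT6B averaged 18074 ± 3022 in the combination group, 20580 ± 2392 with nintedanib, 18251 ± 2231 with alpelisib and 19368 ± 3298 with vehicle (SD, n = 4 each). The KRT6A differences from vehicle were 0.27, 0.20 and 0.12 on the log2 scale in that order of groups (SE 0.23 each), and those of KRT6B were -0.10, 0.10 and -0.08 (SE 0.20 each). Their 95% intervals reached at most 0.75 for KRT6A and 0.50 for KRT6B above vehicle. Alpelisib 1, the library with the highest sum of mouse skin and hair genes, had the highest KRT6A and KRT6C values of all 16. Without it the alpelisib differences were -0.036 for KRT6A and -0.075 for KRT6C.

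**Figure D2:**
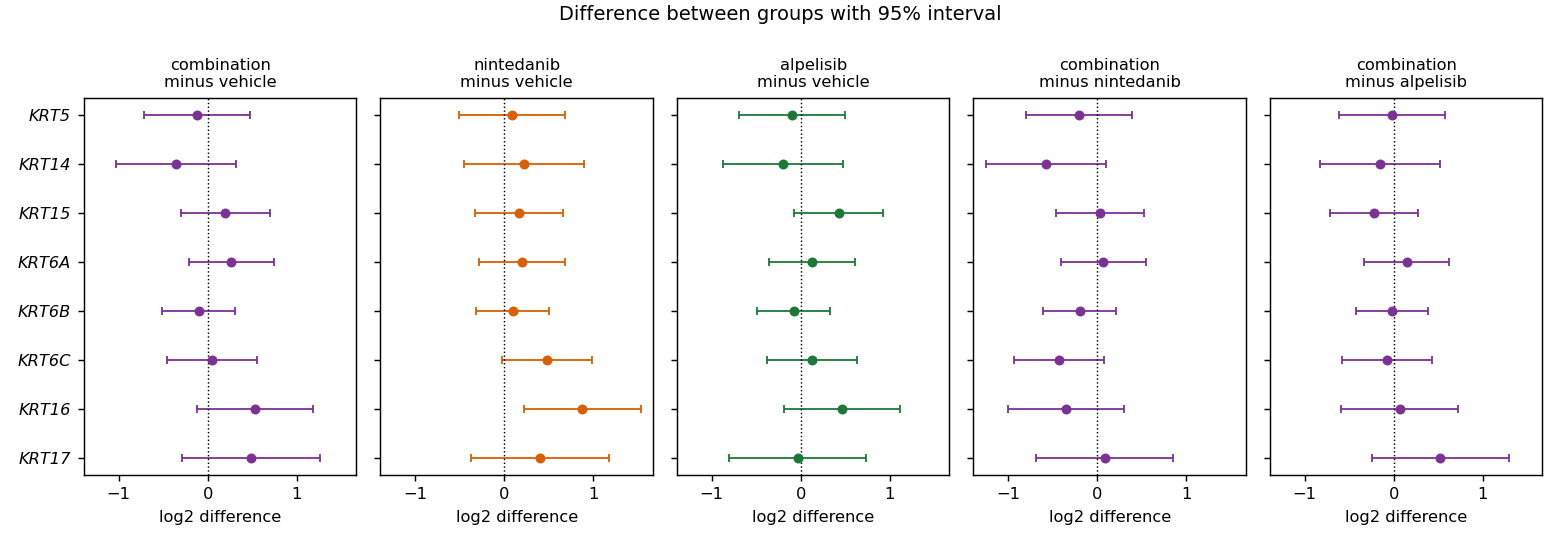
Difference in log2(value + 1) between groups (x axis) for each keratin (y axis), with its 95% interval from limma, in 5 comparisons. The interval of KRT16 between nintedanib and vehicle, 0.23 to 1.53, is the one that leaves out 0, and the adjusted p there was 0.324.

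The counts over all 8 keratins are set here against those over all genes. Between nintedanib and vehicle, 8 of 8 keratins were above 0, also under every other scaling tried, with a median of 0.21 (log2), while 51.7% of all genes were above 0, with a median of 0.02. Scaled to human plus mouse reads, KRT5 was only at 0.0043 and KRT6B at 0.0091. All 28 pairs of these keratins had a Pearson r above 0 over the libraries, so 8 of 8 is not 8 separate observations. At an adjusted p under 0.05 limma called 0 of 8 keratins and 0 genes (0% of genes tested), edgeR called 2 genes, DESeq2 79 and limma-voom 0, with 0 of these 8 keratins in any of them. At an unadjusted p under 0.05, 1 of 8 keratins (KRT16) and 2045 genes (11.6% of genes tested) passed. The groups did not overlap in 2 of 8 keratins (KRT16 and KRT6C) and in 8.08% of genes tested. Of the 2045 genes 59.4% were higher with nintedanib, but 26.9% of those passing were higher after scaling to human plus mouse reads.

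Between the combination and vehicle, 5 of 8 keratins were above 0 with a median of 0.12, beside 53.5% of all genes and a median of 0.03, and KRT6C turned sign when scaled to human plus mouse reads. Limma called 0 keratins and 0 genes there (0% of genes tested), while DESeq2 called 13 genes and edgeR 0. At an unadjusted p under 0.05 it was 0 of 8 keratins against 1441 genes (8.16%), and the groups did not overlap in 0 of 8 keratins against 2.86% of genes. Between alpelisib and vehicle, 4 of 8 keratins were above 0 with a median of 0.04, beside 51.0% of all genes and a median of 0.01, and KRT5 and KRT17 turned sign under quantile normalization. Limma called 0 keratins and 0 genes (0% of genes tested), DESeq2 1 gene and edgeR 0. The unadjusted count was 0 of 8 keratins against 438 genes (2.48%), and 0 of 8 keratins against 1.92% of genes did not overlap.

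The combination was also set against each drug alone. Against nintedanib, 3 of 8 keratins were above 0 with a median of -0.20, beside 50.8% of all genes, with KRT15 and KRT6A turning sign under quantile normalization. No keratin passed an adjusted p of 0.05 in limma (0% of genes tested, DESeq2 4 genes and edgeR 0), 0 of 8 passed unadjusted against 1638 genes (9.27%), and 0 of 8 did not overlap against 3.5% of genes. Against alpelisib, 3 of 8 keratins were above 0 with a median of -0.02, beside 51.4% of all genes, and KRT16 turned sign as given above. Limma called 1 gene there (0.00566% of genes tested), KLK10, a secreted kallikrein-related protease, at -1.14 (log2, SE 0.18, limma adjusted p = 0.0486), which is named because it was the gene called. DESeq2 called 19 genes and edgeR 0, with 0 of these 8 keratins in either. The unadjusted count was 0 of 8 keratins against 1492 genes (8.45%), and 0 of 8 against 3.09% of genes did not overlap.

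For the interaction, 1 of 8 keratins (KRT17) was above 0 and the median was -0.25, beside 49.7% of all genes, with KRT6A turning sign when scaled to human plus mouse reads. Limma called 0 keratins and 0 genes (0% of genes tested), DESeq2 10 genes and edgeR 0, and 0 of 8 keratins passed unadjusted against 1100 genes (6.23%). For nintedanib averaged over alpelisib, 7 of 8 keratins were above 0 with a median of 0.10, beside 54.2% of all genes, but KRT5, KRT14 and KRT6B turned sign when scaled to human plus mouse reads. Limma called 0 keratins and 0 genes (0% of genes tested), DESeq2 153 genes and edgeR 0, and at an unadjusted p under 0.05 it was 1 of 8 keratins, KRT16, against 2501 genes (14.2%). For alpelisib averaged over nintedanib, 4 of 8 were above 0 with a median of -0.06, beside 51.5% of all genes. Limma called 0 keratins and 0 genes (0% of genes tested), as did DESeq2 and edgeR, and 0 of 8 keratins passed unadjusted against 732 genes (4.14%). KRT14 was farthest from 0 in that last comparison, at -0.39 (SE 0.23, 95% interval -0.87 to 0.09).

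The comparisons with vehicle share the 4 vehicle libraries, so a keratin that is above 0 in several of them is not several observations. Vehicle 2 bears on all 3: it had 1 of 8 keratins above the vehicle mean and the lowest KRT16 and KRT17 of all libraries. Without it, KRT16 stood at 0.36 with the combination and 0.71 with nintedanib.

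**Figure D3:**
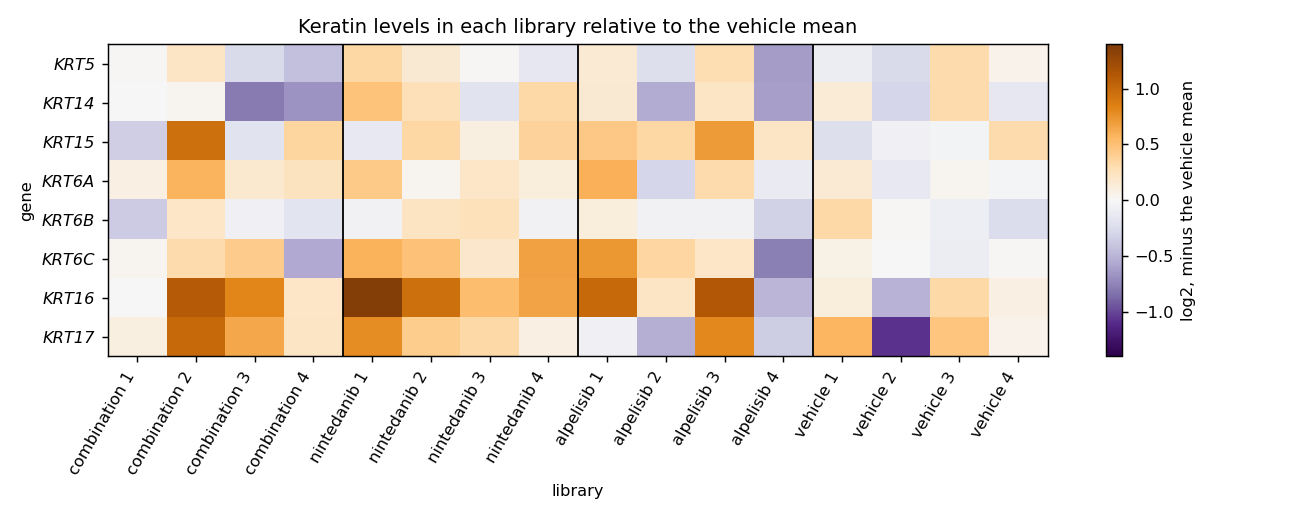
Keratin level in each library (x axis, groups parted by lines) relative to the vehicle mean of the same gene (y axis), in log2 units as colour, orange above and purple below. KRT16 reached 1.37 in nintedanib 1, and KRT17 was at -1.07 in vehicle 2.

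Single libraries differed in how the 8 genes were set. In combination 2 all 8 keratins were above the vehicle mean, by 0.04 for KRT14 up to 1.10 for KRT16 on the log2 scale. Combination 3 and combination 4 had 4 of 8 above it, with KRT14 at -0.80 and -0.67, and combination 3 had KRT16 at 0.82 in the same library. Among nintedanib libraries 6 to 8 of the 8 genes were above the vehicle mean, with KRT16 at 1.37 in nintedanib 1. Alpelisib split: alpelisib 1 and 3 each had 7 of 8 above it with KRT16 at 1.01 and 1.12, while alpelisib 2 had 3 and alpelisib 4 had 1 of 8, with KRT6C at -0.77 in alpelisib 4. Labels give no feature that parts these libraries. The share of all genes above the vehicle mean was not counted in any library. A keratin pattern and a shift of the whole library are thus not told apart by these counts.

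The value of KRT16 relative to KRT14 in the same library does not depend on the size factor, and it compares libraries and not the abundance of the genes. KRT16 was 9.74%, 20.4%, 30.03% and 17.9% of KRT14 in the combination libraries and 18.2%, 15.8%, 15.99% and 12.4% in the nintedanib libraries. It was 17.6%, 16.6%, 18.3% and 10.7% with alpelisib, against 9.64%, 8.48%, 9.81% and 11.4% with vehicle. The nintedanib libraries lay above all vehicle libraries, and 1 combination and 1 alpelisib library lay inside the vehicle range. Group means were 19.5% ± 8.36 for the combination, 15.6% ± 2.40 for nintedanib, 15.8% ± 3.46 for alpelisib and 9.84% ± 1.22 for vehicle (SD, n = 4 each). These ratios were looked at after the single genes and were not tested.

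Other ratios were taken in the same way, and none of them was tested. KRT17 was 121% ± 42.8 of KRT14 in the combination group, 73.8% ± 15.8 with nintedanib, 73.3% ± 17.4 with alpelisib and 66.9% ± 20.7 with vehicle (SD, n = 4 each). KRT6A was 50.6% ± 8.53 of KRT5 in the combination group, 41.5% ± 4.75 with nintedanib, 45.5% ± 9.32 with alpelisib and 38.7% ± 6.10 with vehicle (SD, n = 4 each). KRT16 was 15.8% ± 1.34 of KRT17 in the combination group, 21.4% ± 2.68 with nintedanib, 22.6% ± 7.76 with alpelisib and 15.8% ± 4.88 with vehicle (SD, n = 4 each). The combination libraries, at 14.3% to 17.36%, lay under the nintedanib libraries, at 17.42% to 23.04%, with a narrow gap between them. KRT6B was 46.5% ± 3.14 of KRT6A in the combination group, 56.6% ± 11.1 with nintedanib, 53.0% ± 12.7 with alpelisib and 60.2% ± 8.07 with vehicle (SD, n = 4 each). Here the combination libraries, at 43.9% to 50.9%, lay under the vehicle libraries, at 51.2% to 67.4%. That gap was narrow too, from 50.94% in combination 3 to 51.18% in vehicle 4. Reads may be split between KRT6A and KRT6B, which are near-identical copies, and the effect of this on their ratio was not tested. KRT14 over KRT5, KRT6C over KRT6A and KRT15 over KRT14 were also taken and are not given. These separations were picked from all ratios and group pairs, and how often ratios of other genes separate groups was not counted. Within the set followed here, the type I genes KRT14, KRT15, KRT16 and KRT17 were summed over the type II genes KRT5, KRT6A, KRT6B and KRT6C. This came to 163% ± 13.0 in the combination group, 175% ± 19.4 with nintedanib, 151% ± 23.0 with alpelisib and 154% ± 26.2 with vehicle (SD, n = 4 each). Keratins outside the set were left out of both sums.

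**Figure D4:**
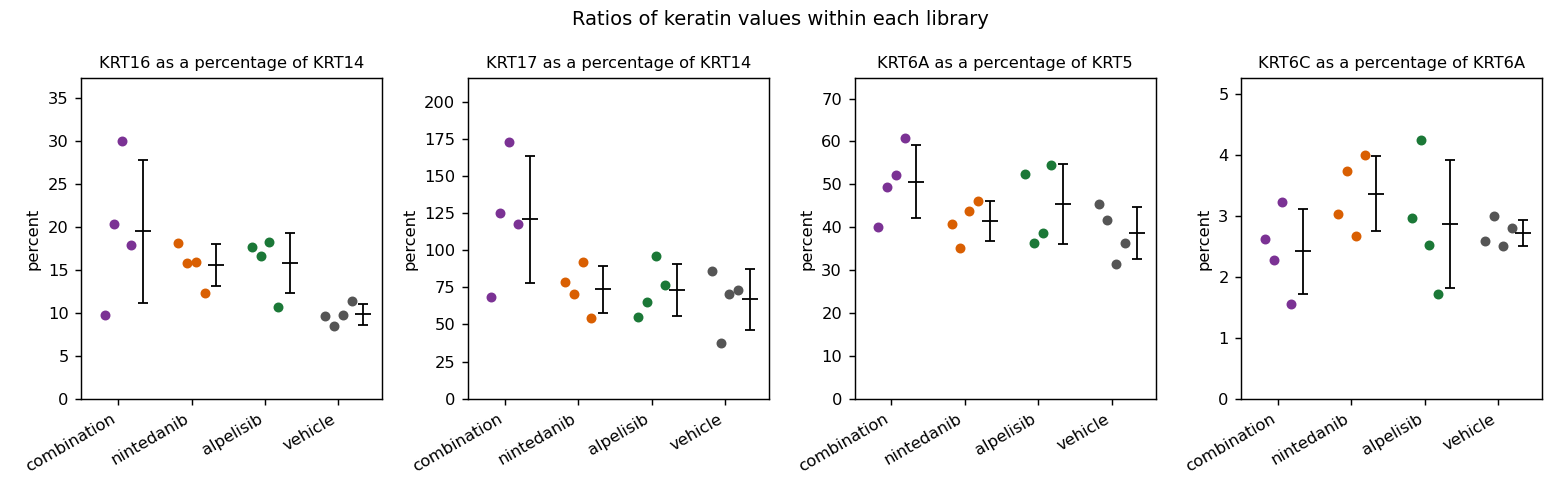
Value of 1 keratin as a percentage of another in the same library (y axis, from 0), by treatment group (x axis). Points are libraries and bars the group mean ± SD (n = 4). For KRT16 over KRT14 the vehicle points lie between 8.48% and 11.4% and the nintedanib points between 12.4% and 18.2%.

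Pairs of these keratins, both of the same type and of different types, were also followed across the 16 libraries. Of the 28 pairs, all 28 had a Pearson r above 0, and 6 pairs passed 0.05 after adjustment over the 28 pairs, in both r and rho. The r and rho p-values came from permutation tests with 100000 resamples, 2-sided. Libraries were shuffled freely across the treatment groups, and the size factor that all genes of a library share was not taken out. How many pairs of other genes would pass the same test was not counted, so these counts do not set the keratins apart from other genes. KRT5 and KRT14, the basal pair, were closest, with r = 0.817 (permutation adjusted p = 0.0028) and rho = 0.80 (permutation adjusted p = 0.00728). Taken within groups their r was 0.821, and without the 2 libraries farthest from the KRT5 median it was 0.746. KRT14 ranked 5 among 17662 genes by r with KRT5, and the median r of all genes with KRT5 was -0.007.

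KRT16 was in 4 of the 6 pairs. It went with its type I relative KRT17 (r = 0.745, permutation adjusted p = 0.00903; rho = 0.679, permutation adjusted p = 0.0332), with KRT6A (r = 0.739, permutation adjusted p = 0.00903; rho = 0.738, permutation adjusted p = 0.0161) and with KRT6C (r = 0.726, permutation adjusted p = 0.00903; rho = 0.744, permutation adjusted p = 0.0161). Within groups these 3 values of r were 0.781, 0.742 and 0.685, and without the 2 libraries farthest from the KRT16 median they were 0.615, 0.672 and 0.748. By r with KRT16, KRT17 ranked 94, KRT6A 110 and KRT6C 134 among 17662 genes, so many other genes ran closer to KRT16. In the other direction KRT16 ranked 379 by r with KRT17, 16 with KRT6A and 11 with KRT6C. KRT5 with KRT16 (r = 0.689) and KRT6A with KRT17 (r = 0.661) were the remaining pairs past 0.05. KRT16 ranked 101 by r with KRT5, and KRT5 ranked 211 by r with KRT16. KRT17 ranked 101 by r with KRT6A, and KRT6A ranked 683 by r with KRT17. Against this, r was 0.351 between KRT6A and KRT6B and 0.401 between KRT6A and KRT6C, neither past 0.05. KRT15 had r between 0.082 and 0.381 with the other 7. Whether any of these values of r differ from each other was not tested.

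Genes of at least median expression whose levels ran most like the keratins over the 16 libraries were also found, among 8824 genes, as a description. Like the mean of KRT5, KRT14 and KRT15 ran TMEM238 (r = 0.816, rho = 0.874), PAK4 (r = 0.794), WNT3A (r = 0.781), PCIF1 (r = 0.777) and LYPD3 (r = 0.777). Like the mean of KRT6A, KRT6B and KRT6C ran KRTDAP, a secreted protein of differentiating keratinocytes (r = 0.844, rho = 0.865), PGLYRP4 (r = 0.843), SPRR1B, a precursor of the cornified envelope (r = 0.831), ALDH3B2 (r = 0.821) and IGFL2 (r = 0.799). Like the mean of KRT16 and KRT17 ran FAM127A (r = 0.943, rho = 0.859), MED15 (r = 0.936), EFNA3 (r = 0.925), GALK1 (r = 0.914) and PRSS8 (r = 0.913). All points share the size factor of their library, and the genes are the highest of many.

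KRT6A, KRT6B and KRT6C are near-identical copies, and KRT14, KRT16 and KRT17 share long stretches, so reads may be split or lost between them. How the authors counted a read that fits several genes is not given in the sources used here. In the gene order of RefSeq on GRCh38.p14, used for order only, KRT6B, KRT6C, KRT6A and KRT5 follow each other without another protein-coding gene between them, as do KRT14, KRT16 and KRT17. Summed, the KRT6 genes stood at 0.14 with the combination, 0.17 with nintedanib and 0.06 with alpelisib (log2 against vehicle, SE 0.24 each). The sum of KRT14, KRT16 and KRT17 stood at 0.07, 0.32 and -0.10 in the same groups (SE 0.38 each), and neither sum passed the threshold in any comparison. Of the pseudogenes that the table lists, KRT16P3 was at 30.2 to 106 normalized counts, KRT42P at 43.3 to 98.4 and KRT16P2 at 0 in all 16 libraries.

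Mouse-mapped keratin reads were set beside the human-mapped ones. Reads were mapped separately to each genome, and how many keratin reads fit both was not examined. Whether all mouse-mapped keratin reads came from host cells was therefore not tested. Mouse Krt14 ran from 616 to 3731 normalized counts and Krt5 from 185 to 1455, on the mouse table's own scale. Krt17 ran from 51.7 to 884, Krt6b from 99.5 to 661, Krt15 from 0 to 203, Krt6a from 0.653 to 91.6 and Krt16 from 0 to 30.2. As reads, the mouse gene reached at most 3.98% of the human one for KRT14 (combination 2), 2.59% for KRT6B (combination 4), 1.26% for KRT5, 1.04% for KRT15 and for KRT17, 0.152% for KRT6A and 0.111% for KRT16 (alpelisib 1 for these last 5). In alpelisib 1, the highest library for human KRT6A, there were 97 mouse Krt6a reads beside 63923 human KRT6A reads. KRT6C has no mouse gene of that name in the pairs used.

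**Figure D5:**
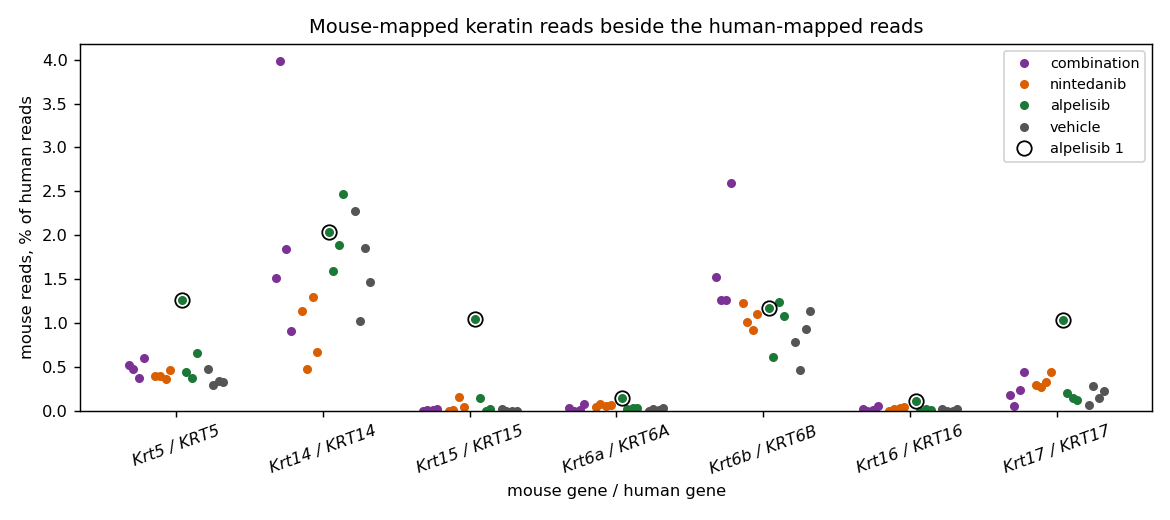
Mouse-mapped reads of each mouse keratin as a percentage of the human-mapped reads of its human counterpart (y axis) in each library, by gene (x axis) and treatment group (colour). The largest value is 3.98% (Krt14 in combination 2), and ringed points are alpelisib 1, the library rich in skin and hair transcripts.

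Genes that work around these filaments came from lists, and 0 of their members passed an adjusted p of 0.05 in limma in any of the 8 comparisons. The lists were chosen with earlier results of these data known. Counts of their members beside those of all genes are therefore a description and not independent support. Among 26 tested genes of activated or wounded keratinocytes, 21 were above 0 with nintedanib against vehicle, with a median of 0.48 (log2) beside 0.02 for all genes, where 51.7% of all genes were above 0. At an unadjusted p under 0.05, 9 of the 26 were higher and 0 lower, beside 11.6% of genes tested in either direction. LCN2, an iron-sequestering protein of inflamed epithelia, averaged 530 ± 132 normalized counts with nintedanib and 132 ± 54.9 with vehicle (log2 2.05, SE 0.38, limma adjusted p = 0.124), and SPRR2A, a cornified envelope precursor, 2508 ± 1469 and 649 ± 145 (log2 1.78, SE 0.38, limma adjusted p = 0.131; SD, n = 4 each). In the combination group 16 of the 26 were above 0 (median 0.21) and with alpelisib 14 (median 0.04). LCN2 stood at 1.38 with the combination and 1.62 with alpelisib, while PI3, an elastase inhibitor of inflamed skin, stood at -0.90 with the combination.

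Of 21 other keratins tested, 12 were above 0 with the combination (median 0.16), 12 with nintedanib (median 0.01) and 15 with alpelisib (median 0.25), and at an unadjusted p under 0.05 there were 3, 4 and 3 higher and 1, 0 and 0 lower. Over all genes tested, 53.5%, 51.7% and 51.0% were above 0 in these comparisons, and 8.16%, 11.6% and 2.48% passed unadjusted in either direction. KRT80, a type II keratin, averaged 1159 ± 473 normalized counts in the combination group, 1259 ± 193 with nintedanib, 1357 ± 418 with alpelisib and 654 ± 91.0 with vehicle (SD, n = 4 each). Its log2 differences were 0.73, 0.94 and 1.003 (SE 0.26 each), with limma adjusted p of 0.528, 0.256 and 1. KRT23, a type I keratin, stood at 1.08, 1.66 and 1.04 (SE 0.37 each) in the same groups. KRT1, of the suprabasal layers, stood at -0.79 with the combination (SE 0.37, limma adjusted p = 0.61).

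Genes that tie basal cells to the matrix stood on both sides of 0. Of 18 basal attachment and identity genes, 8 were above 0 with the combination (median -0.02), 10 with nintedanib (median 0.02) and 7 with alpelisib (median -0.15). Beside this and the list counts below, 53.5%, 51.7% and 51.0% of all genes tested were above 0 in these comparisons. The medians of all genes were 0.03, 0.02 and 0.01. DST, whose epithelial form links keratin filaments to hemidesmosomes, averaged 14929 ± 3944 normalized counts with nintedanib and 7667 ± 2503 with vehicle (SD, n = 4 each; log2 0.995, SE 0.30, limma adjusted p = 0.291). NGFR, a receptor of basal urothelial cells, stood at -0.93 with the combination (SE 0.32, limma adjusted p = 0.528). Of 15 desmosome and anchoring genes, 7 were above 0 with the combination, 9 with nintedanib and 9 with alpelisib. Of 20 targets of NRF2, the regulator of the oxidative stress response, 5 were above 0 with the combination (median -0.20), 5 with nintedanib (median -0.14) and 9 with alpelisib (median -0.09). NQO1, a quinone reductase, stood at -0.56 with the combination and -0.57 with nintedanib (SE 0.19 each). HMOX1, a heme oxygenase, stood at 1.04 with nintedanib (SE 0.35, limma adjusted p = 0.297) and 0.75 with alpelisib (SE 0.35). Of 15 luminal genes tested, 10, 8 and 8 were above 0 in the 3 treated groups, and ELF3, an epithelial transcription factor, stood at 0.65, 0.58 and 0.71 (SE 0.28 each). Among the luminal genes below 0 were UPK3B, a uroplakin, at -0.79 with the combination (SE 0.51), and TMPRSS2, a membrane protease, at -0.92 with nintedanib (SE 0.65). TMPRSS2 averaged 0.615 normalized counts with nintedanib against 2.26 with vehicle.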

How the data were processed

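RNA of xenograft tumours was made into 16 QuantSeq 3′ libraries, 4 per group, and sequenced with 75-base reads, per the labels' protocols, and reads were mapped separately to human and mouse. TopHat, hg19 and mm10 are named in the submitters' processing notes. The counting tool, the annotation and the way of scaling were not given in the sources used here. The deposited tables hold signal, a normalized count per gene and library: all values above 0 (100%) were whole multiples of 1 step per library within 0.01 read, so the deposited values are whole reads over a size factor of each library, by the authors, and reads could be recovered. Columns headed BYL were taken as alpelisib, from the series' design text.

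Values were analysed as log2(value + 1), so differences of low genes are understated. Genes that reached a value of 1 in 4 or more libraries were kept. In R 4.3.3, limma 3.58.1 (lmFit and eBayes, trend on) was fitted to all 16 libraries with 1 mean per group, with Benjamini-Hochberg adjustment of the p-values over 17663 genes and a threshold of 0.05. The plan named counts first and normalized values second, and the second was followed, since the unit is not a count. Scripts were tested on simulated data. Alternatives were limma-voom, DESeq2 1.42.0 and edgeR 4.0.16 on the recovered reads, a pseudocount of 0.1, no filter, a value of at least 10, quantile normalization, scaling to human plus mouse reads, no trend, only the groups compared, a replicate block, the KRT6 and the KRT14, KRT16 and KRT17 genes summed, omission of 2 muscle-rich libraries and of each library in turn.

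The 8 keratins and the gene lists were chosen with earlier results of these data known, so no list is independent support. Beside the keratins, genes were named from the 3 with the smallest p in each list in a comparison with vehicle or for nintedanib averaged over alpelisib, from the 5 most like each of 3 keratin means, and from the mouse counterparts. The reads carry no molecular identifiers and are not independent molecules, and intervals from depth cover counting error alone. No sequence or coordinate is given, because the table at hand holds gene names of GRCh38.p14 while the files use hg19.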

Additional observations from a re-analysis of the deposited data

Results flagged for a closer look

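Each gene was looked at within each group of 4 libraries for a highest or lowest library whose gap to its neighbour exceeded Dixon's 95% limit. For normally spread values chance alone marks about 1 group in 20, and 60 groups were examined. Some groups of mouse keratin values stand for very few reads, such as Krt15 with vehicle, so that rate need not hold for them. Marks that fall in the same library are not separate observations. Of the 32 groups of human keratin values 0 were marked, and of the 28 groups of mouse keratin values 11 were.

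Alpelisib 1 stood above the other alpelisib libraries in 5 mouse keratins. Its Krt5 value was 1455 normalized counts, its Krt15 value 203, its Krt6a value 91.6, its Krt16 value 30.2 and its Krt17 value 884, where the other alpelisib libraries reached at most 342, 20.8, 13.0, 3.47 and 163. The same library had the highest sum of mouse skin and hair genes, 16841, and the part of that tissue in its human KRT6A and KRT6C values was not tested.

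Krt14 was 3731 in combination 2, and at most 1183 in the other combination libraries. Krt6b was 661 in combination 4, and at most 229 in the others of that group, while Krt16 was 11.2 in combination 4 and at most 1.48 in the others. Among nintedanib libraries Krt6b was 134 in nintedanib 4, the library richest in muscle transcripts, against 243 or more in the others, and Krt16 was 0.933 in nintedanib 1, against 5.53 or more. Krt15 was 1.84 in vehicle 1 and 0 in the other vehicle libraries, a value that stands for very few reads.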

How the results depend on the processing

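Under 29 alternatives, 0 keratins passed the threshold in any of the 8 comparisons that the alternative could be fitted to. Only the groups compared could not be fitted apart for the interaction and the averaged effects, and summing left KRT5, KRT15 and the 2 sums. Of 1784 keratin differences recomputed under them, 1698 kept their sign, 86 turned it and 0 crossed the threshold. The cause of the turned signs was not tested.

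Under quantile normalization the sign turned for KRT5 (0.018) and KRT17 (0.0418) between alpelisib and vehicle, KRT15 (-0.0402) and KRT6A (-0.0262) between combination and nintedanib, and KRT16 (-0.0331) between combination and alpelisib. The last was also -0.0206 in edgeR and -0.000517 in DESeq2. Scaled to human plus mouse reads it turned for KRT6C between combination and vehicle (-0.0122), KRT6A in the interaction (0.0191), and KRT5 (-0.0136), KRT14 (-0.0183) and KRT6B (-0.0129) for nintedanib averaged. KRT15 for nintedanib averaged turned in DESeq2 (0.0105) and without the 2 muscle-rich libraries (0.0243), which also turned KRT14 there (-0.0449) and KRT6B between combination and alpelisib (0.0678).

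Leaving out each library in turn gave ranges that cross 0 as follows. Between combination and vehicle they were -0.056 to 0.38 for KRT15, -0.20 to 0.0065 for KRT6B and -0.073 to 0.25 for KRT6C. Between alpelisib and vehicle they were -0.23 to 0.074 for KRT5, -0.036 to 0.26 for KRT6A, -0.16 to 0.027 for KRT6B, -0.075 to 0.42 for KRT6C and -0.39 to 0.15 for KRT17. Between combination and nintedanib they were -0.22 to 0.21 for KRT15, -0.032 to 0.15 for KRT6A and -0.088 to 0.22 for KRT17. Between combination and alpelisib they were -0.19 to 0.11 for KRT5, -0.12 to 0.068 for KRT6B, -0.37 to 0.13 for KRT6C and -0.25 to 0.28 for KRT16. In the interaction they were -0.28 to 0.025 for KRT5, -0.19 to 0.11 for KRT6A and -0.067 to 0.48 for KRT17. For nintedanib averaged they were -0.051 to 0.10 for KRT5, -0.037 to 0.11 for KRT14, -0.16 to 0.059 for KRT15 and -0.013 to 0.0904 for KRT6B, and for alpelisib averaged -0.053 to 0.21 for KRT16 and -0.15 to 0.12 for KRT17.

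Scaling to human plus mouse reads also moved the share of genes that were higher among those with an unadjusted p under 0.05. It was 31.3% against 54.8% between combination and vehicle, 56.6% against 68.0% between alpelisib and vehicle, 55.4% against 43.5% between combination and nintedanib, 42.9% against 55.8% between combination and alpelisib, 61.1% against 40.3% in the interaction and 27.6% against 50.8% for nintedanib averaged.

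Counts over all genes moved as follows. The 1 gene called between combination and alpelisib became 0 with a pseudocount of 0.1, no filter, a value of at least 10, quantile normalization, the replicate block, only the groups compared, edgeR and limma-voom, 19 in DESeq2, 14 without the 2 muscle-rich libraries and 0 to 1 without 1 library. Between nintedanib and vehicle the count was 1 with no filter, no trend or only the groups compared, 2 in edgeR, 79 in DESeq2 and 0 to 4 without 1 library. Between alpelisib and vehicle it was 1 in DESeq2 and 0 to 1 without 1 library. Between combination and vehicle it was 13 in DESeq2. Between combination and nintedanib it was 1 with no filter, 2 with no trend, 4 in DESeq2 and 0 to 123 without 1 library, the 123 without combination 4. The interaction gave 2 with no trend, 10 in DESeq2 and 0 to 8 without 1 library. Nintedanib averaged gave 27 scaled to human plus mouse reads, 153 in DESeq2, 74 without the 2 muscle-rich libraries and 0 to 11 without 1 library. Alpelisib averaged gave 1 with no trend and 0 to 1 without 1 library.

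The replicate numbers pair no samples by the labels. Over 24 pairs with the same number r ran from -0.219 to 0.148 (median 0.0274, 2 over 0.1), and 4 of 16 libraries went best with their own number. With the replicate number as a block the counts were 8 between nintedanib and vehicle, 1 between alpelisib and vehicle, 3 in the interaction and 0 between combination and alpelisib, and KRT16 between nintedanib and vehicle had an adjusted p of 0.339.

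With 4 libraries a group, the 95% intervals of the keratin differences limit what can be seen, not read depth. The share of human reads that fit several keratins is unknown.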
